A study of Zea mays with 318 samples.

Results

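The genes described here are 4 genes that plant tissue uses when oxygen is short: the alcohol dehydrogenase genes Adh1 (GRMZM2G442658) and Adh2 (GRMZM2G098346), a pyruvate decarboxylase gene, Pdc3 (GRMZM2G087186), and a hemoglobin gene, Hb1 (GRMZM2G067402). They were taken by gene identifier, as 4 of the 39625 genes in the expression tables, and no threshold on a measured value was used. RNA was sequenced from kernels of 318 maize inbred lines at 5 days after pollination (DAP), with 1 library per line. The lines came from tropical, subtropical and temperate breeding, were grown in 3 field blocks in 1 season and were selfed, and kernels of a line from the 3 blocks were mixed before RNA extraction. By the prefix of their names, 98 lines are CIMBL, 40 are CML and 46 are GEMS lines, and the others carry no series prefix. No line received a treatment and all lines were sampled at the same age, so the groups are sets of lines. What the 3 prefixes stand for is not stated in the labels.

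When oxygen runs short, plant cells keep glycolysis going by fermentation. Pyruvate decarboxylase converts pyruvate to acetaldehyde, and alcohol dehydrogenase reduces the acetaldehyde to ethanol, which regenerates the NAD+ that glycolysis consumes. Maize Adh1 and Adh2 encode separate alcohol dehydrogenase subunits and are classical anaerobic genes of maize seedlings and roots. Non-symbiotic hemoglobins such as Hb1 bind oxygen very tightly and act in the removal of nitric oxide in oxygen-poor tissue. Young maize kernels grow fast inside maternal tissue and have low internal oxygen. Oxygen was not measured in these samples.

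The total count per library ranged from 6100624 to 29629212, with a median of 13625468, and the medians of the name series lay between 13423204 (CML) and 14169020 (GEMS). The kernel label was compared with marker genes. The ovule genes ZAG1 and ZAG2 were abundant, with medians of 197 and 196 FPKM (fragments mapped to a gene, divided by its length in kilobases and scaled for library size) and ranges of 101.02 to 372 and 81.4 to 498. Markers of the endosperm were mixed. Bt2, a starch synthesis gene, had a median of 11.4 FPKM (lowest 5.86), and Mn1, a cell wall invertase gene of transfer cells, a median of 39.2, and neither had a line at 0 counts. Sh2 had a median of 0.755 and SWEET4c of 2.91 FPKM. Opaque2, a regulator of storage protein genes, had 0 counts in 297 lines, Bt1, the ADP-glucose transporter, had 0 counts in 243 lines, and MRP1, a regulator of transfer cell genes, had 0 counts in 274 lines. The libraries are whole kernels, so fewer cells that use a gene and less of its RNA per cell cannot be told apart.

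Adh1 had the highest median of the 4 genes. Its lowest, median and highest values over the 318 lines were 100.8, 421 and 2706 FPKM, with a mean of 546 ± 383 (SD, n = 318 lines). The middle 50% of lines lay between 265 and 722 FPKM, and the median placed Adh1 at rank 87 of the 27274 genes whose median was above 0. Even the library with the least Adh1 held 4412 counts of it. Adh1 RNA was thus present at a high level in every line, and the highest line exceeded the lowest 26.9 times. The SDs given here are spreads between lines, because no line had a second library.

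Pdc3, the pyruvate decarboxylase gene that supplies acetaldehyde to alcohol dehydrogenase, had nearly the median of Adh1 but a wider spread. Its lowest, median and highest values were 19.8, 409 and 2726 FPKM, with a mean of 524 ± 430.5 (SD, n = 318 lines) and a middle 50% between 195 and 709.6 FPKM. It ranked 91 by its median. The ratio of the highest to the lowest line was 137, and the coefficient of variation was 82.2%, against 70.2% for Adh1. On the log2(FPKM + 1) scale, the SD over lines was 1.21 for Pdc3 and 0.94 for Adh1, while the median gene had an SD of 0.49.

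Adh2, the second alcohol dehydrogenase gene, had a lower median and the smallest SD on the log2 scale of the 4 genes. Its lowest, median and highest values were 28.3, 202 and 1138 FPKM, with a mean of 235 ± 156 (SD, n = 318 lines) and a middle 50% between 130.3 and 286 FPKM. The highest line exceeded the lowest 40.2 times, more than for Adh1. Its median stood at percentile 98.8 of the expressed genes, and its SD of 0.86 on the log2(FPKM + 1) scale stood at percentile 82.2 of all genes. Adh1 stood at percentile 85.7 and Pdc3 at percentile 93.1 on the same measure.

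Hb1, the hemoglobin gene, was rare in most lines and abundant in a few. Its lowest, median and highest values were 0, 4.32 and 247 FPKM, with a mean of 12.5 ± 22.5 (SD, n = 318 lines), a middle 50% between 1.21 and 15.1 FPKM and a rank of 14985 by the median. In 69 lines Hb1 lay under 1 FPKM, in 52 lines it had fewer than 10 counts, and in 14 lines it had 3 counts or fewer. GEMS58 had 0 counts of Hb1 among 12793644, which at 3 counts allows up to 0.217 FPKM. This limit covers counting error only. The 90th percentile line was 84.8 times the 10th percentile line, against 5.66 for Adh1, 4.63 for Adh2 and 8.27 for Pdc3, and the SD on the log2(FPKM + 1) scale (1.73) stood at percentile 98.6 of all genes. The plot of levels by name series shows the 3 enzyme genes as compact clouds and Hb1 as a column that reaches down to 0.

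**Figure D1:**
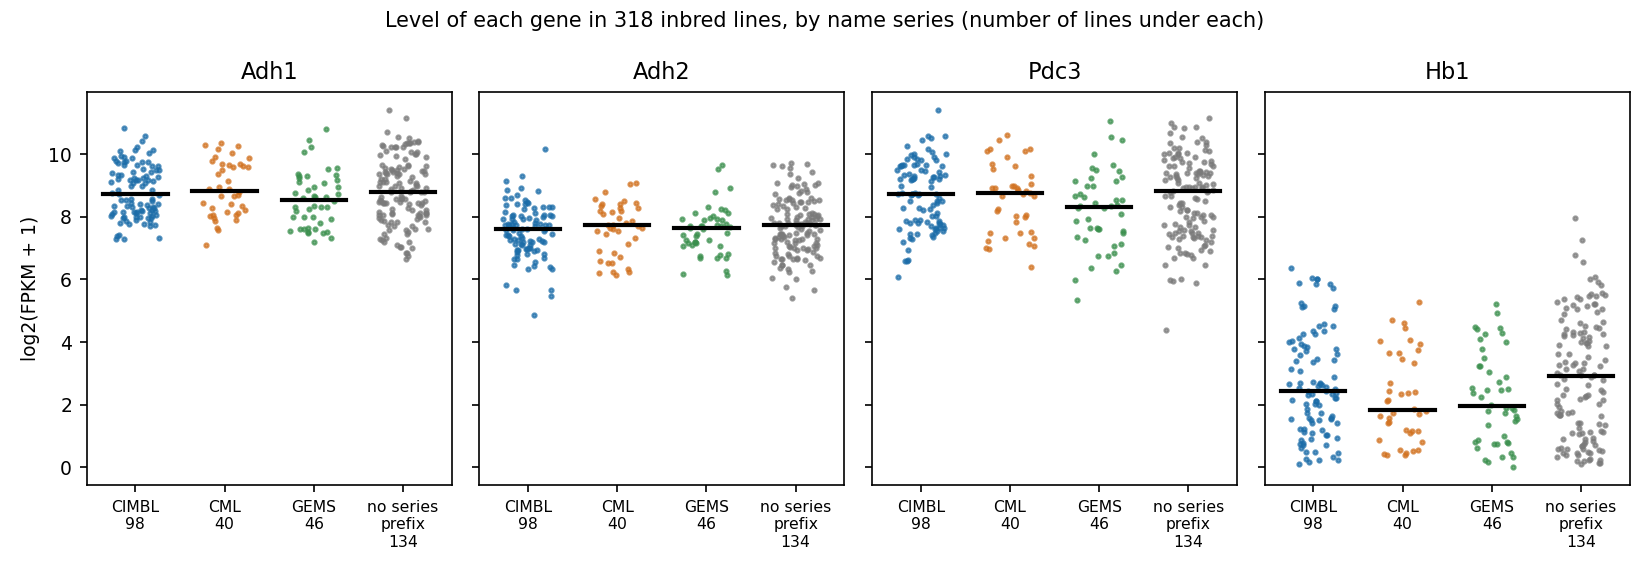
Level of each gene, in log2(FPKM + 1), with 1 point per inbred line, grouped by name series (98 CIMBL, 40 CML, 46 GEMS lines and the lines with no series prefix), and a bar at the median of each group. Adh1, Adh2 and Pdc3 have similar medians in the 4 groups, and Hb1 spans 0 to 247 FPKM.

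FPKM divides by gene length, so the levels of the genes can be set in order within a line. The order depends on the lengths used. The deposited values imply 2903 bases for Adh1, 1685 for Adh2, 2506 for Pdc3 and 900 for Hb1. Adh1 was above Adh2 in 305 of the 318 lines. The ratio of Adh1 to Adh2 had a median of 2.21 and ran from 0.590 in CML20 to 22.9 in CIMBL81, with the 10th and 90th percentiles at 1.19 and 4.57. Pdc3 was above Adh2 in 270 lines, with a median ratio of 2.04. Adh1 and Pdc3 were neighbours in this order and did not keep 1 order: Adh1 was the higher in 203 lines, and their ratio had a median of 1.10, with extremes of 0.433 in CIMBL88 and 7.35 in SY1052. Hb1 was below each of the 3 enzyme genes in all 318 lines. Unique read placement can lower the counts of genes with near-identical copies, and this was not measured for Adh1 and Adh2, which are related in sequence.

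The extreme lines were often the same for several of the 4 genes. Line 7327 had 2706 FPKM of Adh1, 825 of Adh2, 2295 of Pdc3 and 150.8 of Hb1, and line 7884-4HT had 2274, 833, 1806 and 247 FPKM in the same order. These 2 lines had the highest Hb1. CIMBL127 had the highest Adh2 (1138 FPKM) and the highest Pdc3 (2726 FPKM), with 1828 FPKM of Adh1 and 37.4 of Hb1. Of the 318 lines, 33 lay in the upper quartile of all 4 genes and 24 in the lower quartile of all 4.

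At the low end, ZHENG58 held 100.8 FPKM of Adh1, 116.4 of Adh2, 57.9 of Pdc3 and 1.10 of Hb1, and BZN held 113.3, 102.5, 61.4 and 0.605 FPKM. SY1052 had the lowest Pdc3 (19.8 FPKM) beside 146 FPKM of Adh1, 64.7 of Adh2 and 0.205 of Hb1. Adh2 was low on its own in CIMBL81. This line had 988 FPKM of Adh1 and 682 of Pdc3, both in the upper part of their ranges, but only 43.2 FPKM of Adh2. CIMBL6, with the lowest Adh2 (28.3 FPKM), was low in the other genes too, with 159 FPKM of Adh1, 67.1 of Pdc3 and 0.719 of Hb1.

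The name series were compared to ask whether these genes differ between sets of lines, with edgeR's quasi-likelihood test on the counts of 26440 genes and Benjamini-Hochberg adjustment over all of them, a gene being called at an adjusted p under 0.05. Of all genes tested, 31.2% differed over the 4 series. By pair, 24.3% differed between CIMBL lines and lines with no prefix, 12.9% between CML and no prefix, 4.24% between GEMS and no prefix, 0.337% between CML and CIMBL, 16% between GEMS and CIMBL and 12.2% between GEMS and CML. Lines of a series may share ancestry, and these p-values treat related lines as independent.

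The enzyme genes were called in none of the pairs. Adh1 medians were 420 FPKM in CIMBL lines (range 155 to 1828), 453 in CML lines (136 to 1317), 374 in GEMS lines (145 to 1771) and 444 in lines with no prefix (100.8 to 2706). The ranges overlapped almost entirely. Adh2 medians were 193, 210.4, 197 and 211 FPKM, and Pdc3 medians were 423, 430, 315 and 448 FPKM, in the same order of series. Over the 4 series the adjusted p by edgeR was 0.307 for Adh1, 0.390 for Adh2 and 0.388 for Pdc3. Over the 18 tests of these 3 genes by pair, edgeR called 0, with 1 at an unadjusted p under 0.05. DESeq2 also called 0, with 2 at an unadjusted p under 0.05, and limma called 0, with 1. The fitted log2 difference between GEMS and no prefix was -0.34 (SE 0.163, adjusted p = 0.232) for Adh1 and -0.39 (SE 0.201, adjusted p = 0.285) for Pdc3, so a difference of this size was not resolved.

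Hb1 was called between name series. Its median was 6.55 FPKM in lines with no prefix (mean 16.6 ± 29.9 SD, range 0.0761 to 247), 4.43 in CIMBL lines (11.9 ± 17.5, 0.0864 to 80.9), 2.58 in CML lines (6.59 ± 8.44, 0.308 to 37.6) and 2.86 in GEMS lines (6.78 ± 8.47, 0 to 36.1). The groups overlapped over most of their ranges, and the highest values stood in lines with no prefix. In the edgeR fit Hb1 was lower in CML than in no-prefix lines by a log2 difference of -1.31 (SE 0.405, adjusted p = 0.0178), and lower in GEMS than in no-prefix lines by -1.29 (SE 0.382, adjusted p = 0.0266). Over the 4 series its adjusted p was 0.00246. CIMBL and no-prefix lines were not called (-0.47, adjusted p = 0.210).

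The Hb1 difference depended in part on the 2 lines with the most Hb1, both without a prefix, whose removal lowers the mean of that group by construction. Without 7884-4HT, the line with the most Hb1 and a library with the second lowest correlation with the mean library (r = 0.493, against a median of 0.829), the GEMS difference was -1.14 (adjusted p = 0.0552) and was no longer called, while the CML difference was -1.16 (adjusted p = 0.0345). Without 7884-4HT and 7327 neither was called, at -1.06 (adjusted p = 0.0533) for CML and -1.04 (adjusted p = 0.0838) for GEMS, although Hb1 was still called over the 4 series (adjusted p = 0.0191). DESeq2 with all lines called both differences (adjusted p = 0.00244 for CML and 0.00477 for GEMS). A limma fit on log2(FPKM + 1) did not call Hb1 in any form, with an adjusted p of 0.10 over the 4 series.

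Related genes of the low-oxygen response were counted in the same comparison. Of 14 related genes (fermentation, hemoglobin, sucrose synthase and glycolysis), 4 were lower in GEMS than in no-prefix lines and 0 were higher, where 4.24% of all genes were called in either direction, with a median log2 difference of -0.25. The 4 were Hb2, a second hemoglobin gene (-1.01, adjusted p = 0.0214), gpc4, a cytosolic glyceraldehyde-3-phosphate dehydrogenase gene (-0.86, adjusted p = 0.0195), phi1, a phosphohexose isomerase gene (-0.66, adjusted p = 0.0375), and eno1, an enolase gene (-0.38, adjusted p = 0.0175). Without 7884-4HT, 3 were lower, without 7884-4HT and 7327, 2 were lower, namely Hb2 and eno1, and in the limma fit only eno1 was. Between CIMBL and no-prefix lines 3 of the 14 were lower and 0 higher, a share near the 24.3% of all genes called there. Pdc2, another pyruvate decarboxylase gene, was among them (-0.77, adjusted p = 2.87e-05). Pdc3 was not called there, and the difference between the 2 decarboxylase genes was not tested. CML against CIMBL lines and GEMS against CML lines gave 0 calls among the 14, where 0.337% and 12.2% of all genes were called. The remaining pairs of series gave calls in both directions. Between CML and no-prefix lines sus2, a sucrose synthase gene, was higher (0.63, adjusted p = 0.0324) and pdc2 lower, where 12.9% of all genes were called, and between GEMS and CIMBL lines gpc2 was higher (0.25, adjusted p = 0.0167) and Hb2 lower, where 16% were.

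The 4 genes rose and fell together across lines. The correlation of log2(FPKM + 1) over the 318 lines was highest for Adh1 with Pdc3 (Pearson r = 0.911, Spearman rho = 0.922), which encode consecutive steps of ethanol fermentation. Adh1 with Hb1 followed (r = 0.788, rho = 0.793), then Pdc3 with Hb1 (r = 0.751, rho = 0.770). Adh2 correlated less with each of them: r = 0.653 (rho = 0.646) with Pdc3, 0.646 (rho = 0.635) with Adh1 and 0.540 (rho = 0.543) with Hb1. All 6 pairs were computed, and each r and rho had a two-sided permutation p of 1e-05, the smallest that 100000 permutations can give. Lines that share ancestry are not independent points, which these p-values do not take into account. Leaving out the 2 lines farthest from the median of the gene on the x axis gave r from 0.534 to 0.909, and leaving out the 10 libraries that correlated least with the mean library gave r from 0.536 to 0.909.

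**Figure D2:**
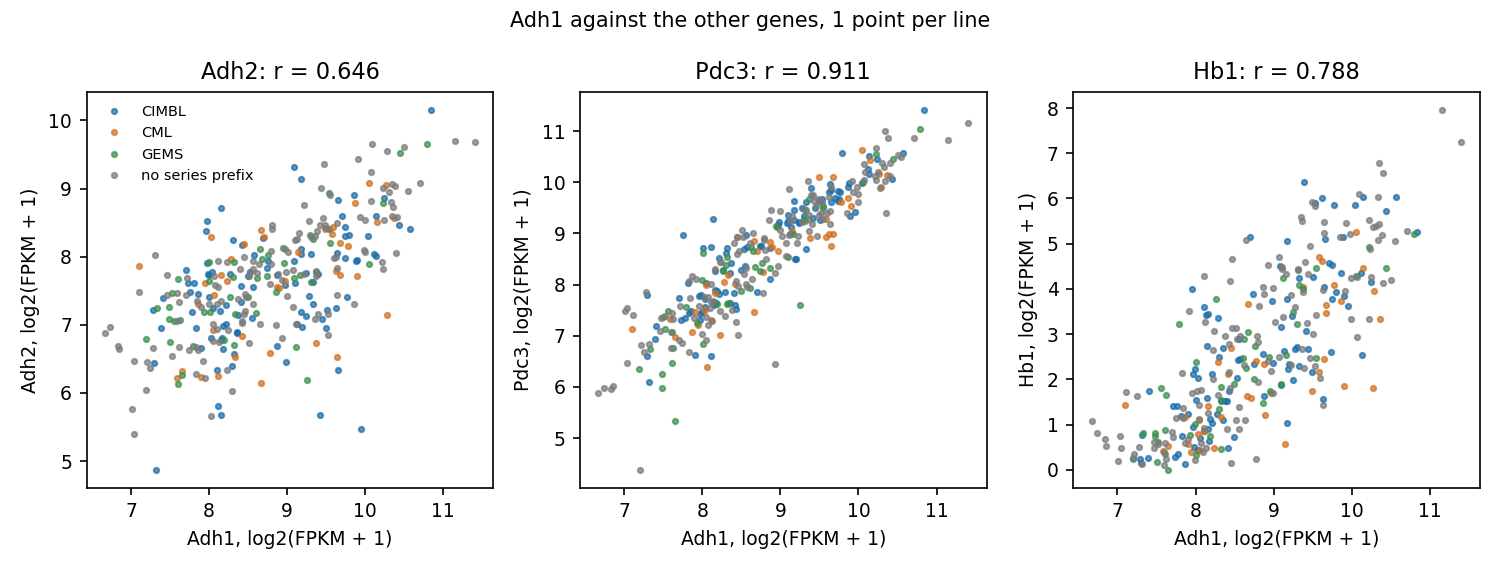
Adh1 (x axis) against Adh2, Pdc3 and Hb1 (y axes), all in log2(FPKM + 1), with 1 point per line coloured by name series. Pdc3 forms a narrow band (r = 0.911). Hb1, which flattens near 0 (r = 0.788), and Adh2 (r = 0.646) form wider ones.

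Regression of each gene on the others gave slopes with their errors. In the limma fit of all genes on Adh1, a difference of 1 log2 unit in Adh1 went with 1.17 log2 units of Pdc3 (SE 0.0298, adjusted p = 5.33e-120), 1.44 of Hb1 (SE 0.0634, adjusted p = 3.24e-66) and 0.59 of Adh2 (SE 0.0393, adjusted p = 2.76e-37). The same fit called 28% of the 27273 genes tested as rising with Adh1 and 30.6% as falling with it, so a call alone is common and the size of r carries the comparison. On Adh2, 25.1% of genes rose and 24.1% fell. On Pdc3, 27.2% rose and 29.4% fell, and on Hb1, 27.4% rose and 26.4% fell. In all 12 fits of 1 of the 4 genes on another, the gene rose.

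When the other pair of genes was held fixed, the correlations separated further. The partial correlation of Adh1 with Pdc3 given Adh2 and Hb1 was 0.736. Adh1 with Hb1 kept 0.369 and Adh2 with Pdc3 0.200, while Adh1 with Adh2 (0.135), Pdc3 with Hb1 (0.121) and Adh2 with Hb1 (0.0416) were small. These are descriptions over the 318 lines, without a test. A single component over the 4 genes carried 79% of their variance.

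Within each name series Adh1 and Pdc3 kept the same correlation, with r of 0.906 in CIMBL, 0.911 in CML, 0.914 in GEMS and 0.918 in no-prefix lines. Adh1 with Hb1 had r of 0.757, 0.733, 0.837 and 0.821, and Pdc3 with Hb1 had r of 0.700, 0.731, 0.792 and 0.786, in the same order. Adh1 with Adh2 ranged more widely, from 0.438 in CIMBL and 0.518 in CML to 0.715 in GEMS and 0.780 in no-prefix lines. Permutation of the series labels gave p = 0.0391 for this spread of r, which did not pass adjustment over the 6 pairs (0.163). Adh2 with Pdc3 had r of 0.495, 0.625, 0.782 and 0.735 (permutation p = 0.0542, adjusted 0.163). The correlations of Adh2 were thus lowest in CIMBL lines, but a difference between the series was not resolved.

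**Figure D3:**
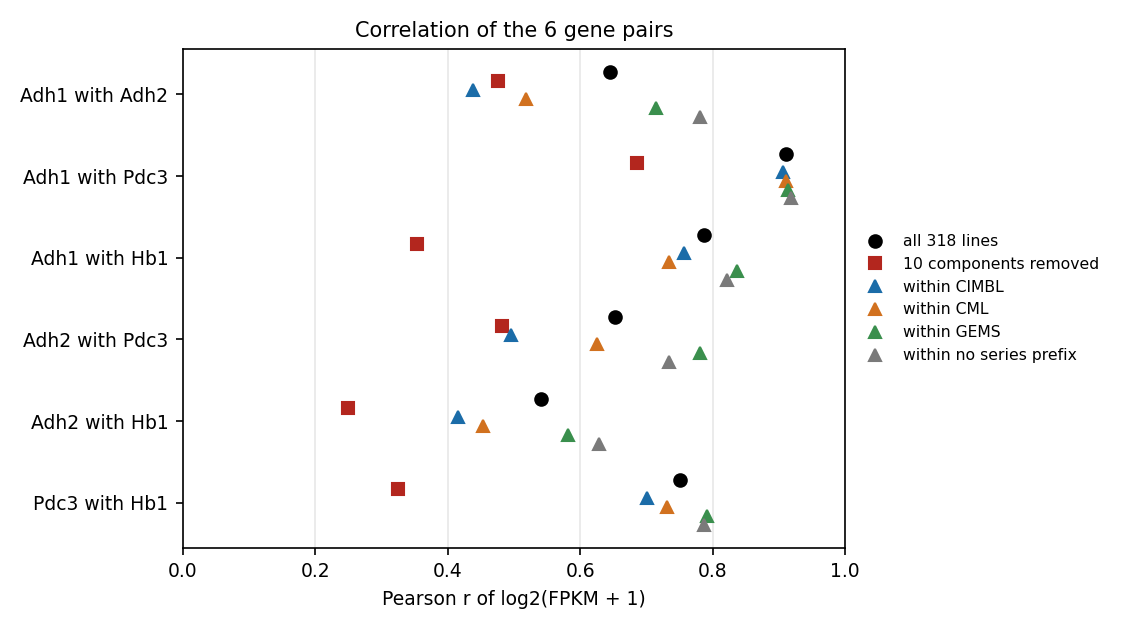
Pearson r of log2(FPKM + 1) for the 6 gene pairs, over all 318 lines (circles), after removal of 10 principal components (squares) and within each name series (triangles). The Adh1 with Pdc3 triangles lie between 0.906 and 0.918, and the Adh1 with Adh2 triangles between 0.438 and 0.780.

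Much of this covariation was shared with many other genes. The second principal component of all genes, with 8.64% of their variance, had an absolute r of 0.802 with Adh1, 0.761 with Pdc3, 0.697 with Hb1 and 0.347 with Adh2. The first component (10.3% of the variance) had an absolute r of 0.404 with Adh2. The first 10 components together carried 40.2% of the variance of all genes, but 80.9% of that of Adh1, 76.3% of that of Pdc3, 62.4% of that of Hb1 and 48.8% of that of Adh2. The 4 genes were among the genes from which the components were computed.

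With the 10 components removed, Adh1 and Pdc3 still correlated at 0.685, Adh2 with Pdc3 at 0.482 and Adh1 with Adh2 at 0.476. The correlations of Hb1 fell to 0.353 with Adh1, 0.324 with Pdc3 and 0.249 with Adh2. With the components as covariates in the limma fits, all 12 fits among the 4 genes were still called, while the share of all genes that rose was 5.24% on Adh1, 4.81% on Adh2, 5.79% on Pdc3 and 1.24% on Hb1.

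Ranked by r over 20481 genes with a median of at least 1 FPKM, the genes most like Adh1 were GRMZM2G094712 (0.929), gpc4 (0.912), Pdc3 (0.911), GRMZM2G088064 (0.906) and gpc3 (0.904). Those most like Pdc3 were Adh1 (0.911), GRMZM2G004932 (0.909) and the aldolase gene ald1 (0.898). For Hb1 they were GRMZM2G094712 (0.792), gpc4 (0.792) and Adh1 (0.788). For Adh2 the closest genes were GRMZM2G025867 (0.693), GRMZM2G151734 (0.687) and GRMZM2G094712 (0.687). GRMZM2G094712, which the gene table used here gives no name, was among the closest 5 genes of all 4, with a median of 242 FPKM and a range of 85.9 to 1038. The strongest negative r was -0.787 for Adh1, -0.743 for Pdc3, -0.690 for Hb1 and -0.599 for Adh2.

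Among all 27273 other genes Adh1 ranked 1 for Pdc3 and Pdc3 ranked 3 for Adh1. For Hb1, Adh1 ranked 3 and Pdc3 ranked 11. For Adh2, Pdc3 ranked 9 and Adh1 ranked 12, whereas Adh2 itself ranked 393 for Adh1, 311 for Pdc3 and 545 for Hb1. Adh2 thus had Adh1 and Pdc3 among its closest genes without being among theirs. An r of at least 0.5 was reached by 4.58% of all genes with Adh1, 4.2% with Pdc3, 2.95% with Hb1 and 0.550% with Adh2. Of the closest 50 genes, Adh1 shared 37 with Hb1, 34 with Pdc3 and 26 with Adh2, and Adh2 shared 19 with Hb1.

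The 14 related genes were used to place the 4 genes in their pathway. With Adh1 11 of the 14 rose, with Pdc3 11, with Hb1 11 and with Adh2 13, and 0 fell with any of them. Of all genes, 28%, 27.2%, 27.4% and 25.1% rose with these 4 genes in the same order. The median r of the 14 was 0.449 with Adh1, 0.491 with Pdc3, 0.432 with Hb1 and 0.377 with Adh2, while the median over all genes was -0.0127, -0.0117, -0.000961 and 0.00429. With 10 components as covariates the counts were 8 for Adh1, 9 for Pdc3, 7 for Hb1 and 8 for Adh2, where 5.24%, 5.79%, 1.24% and 4.81% of all genes rose.

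The glycolysis genes fell into separate sets. The 4 cytosolic glyceraldehyde-3-phosphate dehydrogenase genes all act at the same step. With Adh1, gpc4 had r = 0.912 and gpc3 had r = 0.904, whereas gpc1 had r = 0.086 and gpc2 had r = 0.037, and neither gpc1 (limma adjusted p = 0.185) nor gpc2 (0.594) was called. Gpc3 and gpc4 are known as the copies that rise in oxygen-starved maize seedlings. Gpc4 ran from 20.1 to 2720 FPKM with a median of 174 and gpc3 from 59.4 to 3056 with a median of 286.8, while gpc1 (133.06 to 1499, median 478) and gpc2 (179 to 1239, median 601) were higher at the median and varied less. Gpc3 and gpc4 are near-identical, so the division of reads between them is uncertain.

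Enolase, a later step of glycolysis, showed the same division. Eno1, the enolase gene known to be induced without oxygen in maize, had r = 0.720 with Adh1, 0.677 with Pdc3, 0.640 with Hb1 and 0.566 with Adh2. Eno2, which is known not to be, had r = 0.123 with Adh1 (adjusted p by limma 0.0522), 0.046 with Pdc3, 0.083 with Hb1 and 0.291 with Adh2. Eno1 had a median of 213 FPKM (68.5 to 769) and eno2 of 478 FPKM (224 to 1013). Both eno2 and gpc1 (r = 0.259) were called as rising with Adh2, and neither was with 10 components as covariates. Eno2 was also called with Adh1 among genes with a median of at least 1 FPKM (adjusted p by limma 0.0465), and a difference between Adh2 and the other genes was not tested.

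The upstream glycolysis genes were close to the fermentation genes. Phi1 had r = 0.885 with Adh1, 0.809 with Pdc3, 0.765 with Hb1 and 0.578 with Adh2. Ald1, with a median of 836 FPKM (268 to 3807), had r = 0.898 with Pdc3, 0.856 with Adh1, 0.699 with Hb1 and 0.667 with Adh2. Sucrose synthase cleaves the sucrose delivered to the kernel, and its gene Sus1 had r = 0.656 with Pdc3, 0.590 with Adh1, 0.426 with Hb1 and 0.413 with Adh2. Sh1, the classical anaerobic sucrose synthase gene, had lower values, at 0.349 with Adh1 and 0.289 with Pdc3, and sus2 had 0.291 and 0.299.

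The remaining fermentation and hemoglobin genes were lower in level and less alike. Pdc2, at a median of 6.03 FPKM, had r = 0.462 with Adh1 and 0.466 with Pdc3. LDH, the lactate dehydrogenase gene of the other fermentation route from pyruvate, had a median of 83.1 FPKM and r = 0.516 with Pdc3 and 0.408 with Adh1. Hb2, at a median of 6.16 FPKM, had r = 0.417 with Hb1 and 0.437 with Adh1, and lost its relation to Adh1 when 10 components were covariates (adjusted p = 0.514). With the 10 components removed, its r with Hb1 was 0.029. Within CML lines r of Hb2 was 0.036 with Hb1 and 0.025 with Adh1. In the other series it was 0.420 to 0.513 with Hb1 and 0.392 to 0.533 with Adh1, a difference that was not tested. Of the 4 aldehyde dehydrogenase genes, which act on the acetaldehyde that escapes reduction, only rf2 was called with Adh1, and it fell (r = -0.324), a call that was lost with 10 components as covariates (adjusted p = 0.115).

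**Figure D4:**
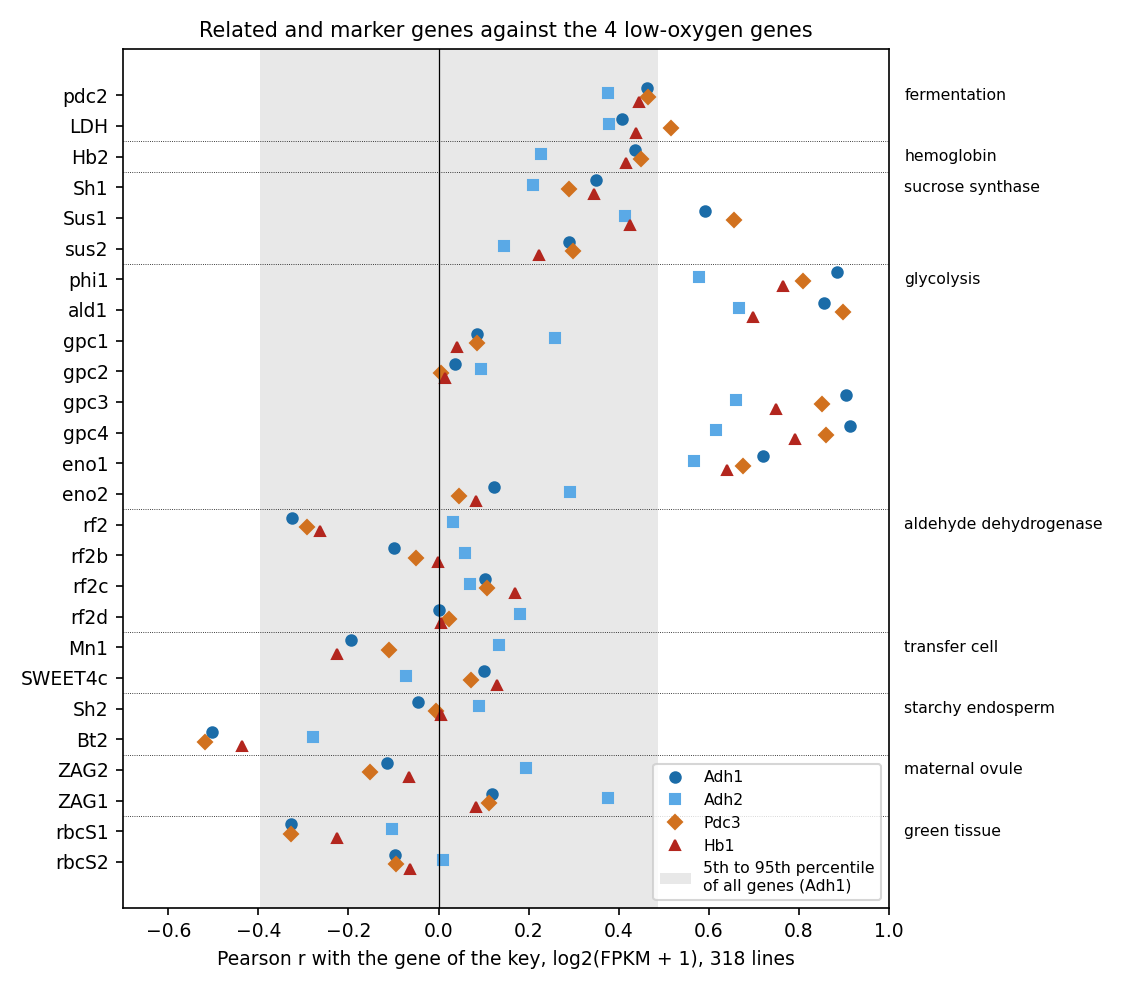
Pearson r of log2(FPKM + 1) over 318 lines for related and marker genes (rows) with Adh1, Adh2, Pdc3 and Hb1 (symbols), with the 5th to 95th percentile of all genes for Adh1 shaded. Gpc3, gpc4, phi1 and ald1 stand far to the right of the shading, and gpc1, gpc2 and eno2 lie inside it for Adh1.

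Markers of kernel compartments moved with the 4 genes to different degrees. Bt2 fell with all 4, with r of -0.503 with Adh1, -0.519 with Pdc3, -0.436 with Hb1 and -0.278 with Adh2, but was called with none of them with 10 components as covariates (adjusted p by limma from 0.0592 to 0.780). The other measured starchy endosperm marker, Sh2 (median 0.755 FPKM), had r = -0.045 with Adh1 and was not called with any of the 4. The summed level of the starchy endosperm markers ran from 6.33 to 23.9 FPKM with a median of 12.3. RbcS1, a marker of green tissue with a median of 1.81 FPKM, fell with Adh1 (r = -0.326), Pdc3 (r = -0.328) and Hb1 (r = -0.225). The other green marker, rbcS2 (median 9.41 FPKM), was called with none of the 4 (r from -0.096 to 0.009). The summed green markers ran from 1.27 to 43.8 FPKM with a median of 11.4.

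The maternal ovule markers were called with Adh2. ZAG1 had r = 0.375 and ZAG2 r = 0.194 with Adh2, and both were called as rising with it, while with Adh1 neither was called (r = 0.118 and -0.115). ZAG2 fell with Pdc3 (r = -0.153, adjusted p by limma 0.0129). Within CIMBL, CML, GEMS and no-prefix lines, r of ZAG2 with Pdc3 was -0.329, -0.478, 0.128 and -0.068. With Adh1 it was -0.318, -0.513, 0.146 and 0.014 in the same order. With 10 components as covariates only the call of ZAG1 with Adh2 was kept, and ZAG2 was called as falling with Adh1 in the TMM values (adjusted p = 0.0202) and in the lines of the mapping table (adjusted p = 0.029). Differences between the 4 genes or between the name series in these relations were not tested. The summed ovule markers ran from 182 to 698 FPKM with a median of 393. Mn1 fell with Adh1 (r = -0.194) and Hb1 (r = -0.226) and rose with Adh2 (r = 0.135). SWEET4c, the other transfer cell marker fitted, rose with Hb1 (r = 0.129, adjusted p by limma 0.0396), with a rho of 0.0475. That call was lost with a pseudocount of 0.1, with no filter on low values, in the TMM values and with name series as covariate. SWEET4c was not called with Adh1, Adh2 or Pdc3. The summed transfer cell markers ran from 4.70 to 242 FPKM with a median of 42.2. With 10 components as covariates the calls of rbcS1, Mn1 and SWEET4c were lost as well. The part of kernel composition or stage in the levels of the 4 genes was not tested.

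Properties of the libraries were related to some of the genes. None of the 4 correlated with the total count over all lines (r from -0.0624 to -0.0223, none past adjustment over the 12 relations computed). Within CIMBL lines r was -0.247 for Adh1, -0.267 for Adh2, -0.321 for Pdc3 and -0.227 for Hb1. In the other series it ran from -0.0379 to 0.227 over the 4 genes. These values within series were not tested. Adh2 rose with the share of counts taken by the 10 most abundant genes (0.828% to 4.36%, median 2.06%), with r = 0.329 and rho = 0.315 (permutation p = 1e-05, adjusted 0.00012). Without the 2 farthest lines r was 0.294, and within series it was 0.408 in CIMBL, -0.0254 in CML, 0.684 in GEMS and 0.284 in no-prefix lines, so the relation did not hold within CML lines. Adh1 fell with the correlation of a library with the mean library (r = -0.242, permutation p = 2e-05, adjusted 0.00012). Its rho was -0.155 (permutation p = 0.00553, adjusted 0.0332). Without the 2 farthest lines this r was -0.211, and within the series it was -0.266, -0.275, -0.0774 and -0.245, weakest in GEMS lines. Adh1 was itself among the 1000 genes of highest mean FPKM that this measure uses, so they are not independent. The Hb1 relation to the same measure was weaker (r = -0.151, adjusted p = 0.0283 by permutation, -0.102 without the 2 farthest lines). Its rho of -0.0575 did not pass adjustment (permutation p = 0.307, adjusted 0.429).

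With no repeat library of any line, the most alike lines give the nearest view of repeatability. The 10 most alike pairs were chosen on the 1000 most variable genes. ZHENG58 and 177 correlated at 0.991 over those genes, and their median squared count difference was 2.06 times that of sampling noise. The other 9 pairs correlated at 0.930 to 0.959, and their median squared count differences were 6.87 to 16.7 times that of sampling noise. The median correlation over all pairs of lines was 0.535. Line 177 held 105.5 FPKM of Adh1 against 100.8 in ZHENG58, 124.03 against 116.4 of Adh2, 62.2 against 57.9 of Pdc3 and 0.749 against 1.10 of Hb1. The values of the 3 enzyme genes in these 2 lines thus lay close together, at the low end of their ranges for Adh1 and Pdc3.

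Over the 10 pairs the median absolute log2 difference was 0.49 for Adh1 against 0.94 over all pairs, 0.55 against 0.81 for Adh2, 0.48 against 1.19 for Pdc3 and 0.83 against 1.70 for Hb1. The pair difference lay below the median of all pairs in 7 of 10 pairs for Adh1, 8 for Adh2, 7 for Pdc3 and 9 for Hb1. For Pdc3 the differences within the 10 pairs still ran from 0.0096 to 1.49, so some alike lines differed by more than the median of all pairs. The 4 genes were left out of the variable genes that chose the pairs, but genes that correlate with them were not. These values are a description without a test.

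**Figure D5:**
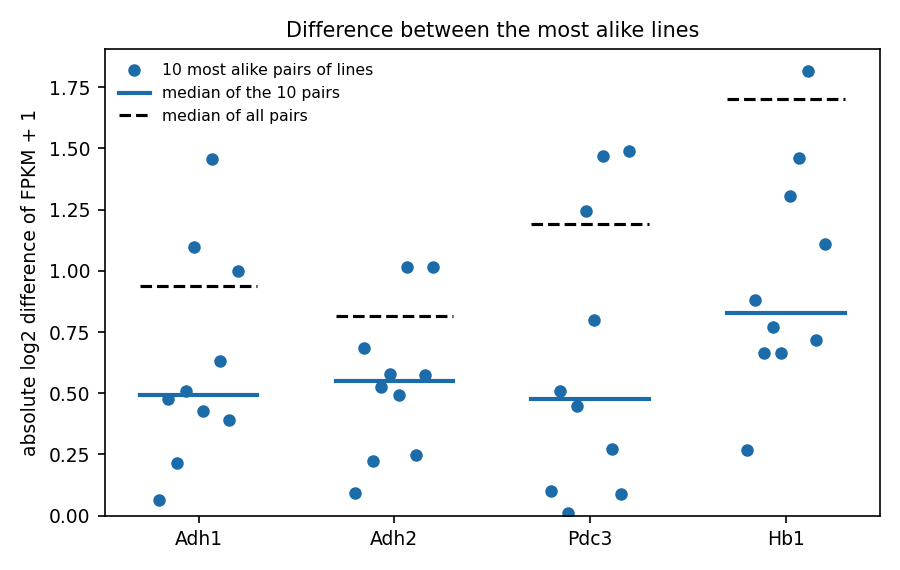
Absolute difference in log2(FPKM + 1) between the 2 lines of each of the 10 most alike pairs (points) for each gene, with the median of the 10 pairs (solid bar) and the median of all pairs of lines (dashed bar). The solid bars lie at 0.49, 0.55, 0.48 and 0.83 for Adh1, Adh2, Pdc3 and Hb1, under the dashed bars at 0.94, 0.81, 1.19 and 1.70.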

How the data were processed

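Poly(A) RNA of 5-DAP kernels was sequenced as paired 125-base reads. The authors aligned cleaned reads over 50 bases to B73 AGPv3 with TopHat2 without strand information, kept uniquely mapped reads and counted them on genes of Ensembl release 27 with GenomicFeatures and GenomicAlignments; tool versions are not given in the sources used here. The authors deposited raw counts per gene and FPKM values normalised with DESeq2 size factors and gene length. Reads of a gene and an antisense partner cannot be told apart, and genes with near-identical copies lose reads.

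The 4 genes and the gene lists were chosen with earlier results of these data known, and 16 list genes were added after the files were seen, by synonyms in the RefSeq gene table, which names 19060 of the 39625 IDs. No coordinates or sequences are given because that table describes another assembly. Genes were named if they were one of the 4 genes, on a list, or among the closest 5 or lowest 3 by r. Name series were compared with edgeR 4.0.16 on counts (TMM), with 26440 genes kept by its filter on low counts. Levels were analysed as log2(FPKM + 1), and genes with a median FPKM above 0 were fitted on each gene with limma 3.58.1. A fold on this scale understates the change of low genes such as Hb1. Correlations used Python 3.11.15 and scipy 1.17.1 with 100000 permutations, and p-values were adjusted by Benjamini-Hochberg with a threshold of 0.05. Steps were tested on simulated data. P-values measure the spread between lines, each with 1 library of mixed kernels, and total counts of at least 6100624 limit the precision of Hb1 but hardly of the other 3 genes. Alternatives were DESeq2 1.42.0, other filters, pseudocounts of 0.1, TMM values, 10 principal components, the 282 lines of the mapping table and, chosen after seeing the data, fits without 7884-4HT, 7327 or the 10 libraries of lowest consistency.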

Additional observations from a re-analysis of the deposited data

How the results depend on the processing

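All 78 correlations of the 4 genes under other settings kept their sign and their call, and so did the 6 tests of a difference in r between name series. Gene calls between series were sensitive to the filter. With no filter on low counts they were 5711 for CML against no prefix (3417 with it), 2888 for GEMS against no prefix (1121), 1001 for CML against CIMBL (89), 6440 for GEMS against CIMBL (4220), 5156 for GEMS against CML (3218) and 12689 over the 4 series (8244). In the lines of the mapping table GEMS against no prefix gave 1686. For CML against CIMBL, DESeq2 called 55 genes and limma on log2(FPKM + 1) called 0, with 1674 at an unadjusted p under 0.05.

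Hb1 lost its calls under limma on log2(FPKM + 1), with -0.69 for CML, -0.68 for GEMS and an adjusted p of 0.10 over the 4 series. The GEMS call was also lost without 7884-4HT (-1.14) and without the 10 libraries of lowest consistency (-1.12), and both calls without 7884-4HT and 7327 (-1.06 for CML and -1.04 for GEMS). The cause was not tested. The relation of Hb1 to library consistency was lost by Spearman rho (-0.0575), with a pseudocount of 0.1 (-0.12) and in the lines of the mapping table (-0.14).

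With 10 principal components as covariates, the genes called were 3052 for Adh1, 2838 for Adh2, 3553 for Pdc3 and 611 for Hb1, and the related genes that rose were 8 for Adh2 and 7 for Hb1. The slope of Hb2 turned to -0.16 on Adh1, -0.21 on Adh2 and -0.19 on Pdc3, and that of Mn1 on Adh1 to 0.16, all without a call. Depth limits Hb1, which had 3 counts or fewer in 14 lines. No paired analysis was possible because each line has 1 library and replicate numbers only name the lines.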
